A study of Mus musculus with 28 samples.

Results

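The comparison described here set 5 subcutaneous mesothelioma tumors treated with cisplatin plus immune checkpoint blockade (cisplatin+ICB) against 4 tumors treated with cisplatin alone, and asked which transcripts differed when ICB was added to the same dose of chemotherapy. These 9 tumors, chosen by the treatment named in their titles, belonged to a set of 28 tumors. Every tumor was an AB1-HA tumor, grown in the right flank of female BALB/c.AusBP mice aged 8 to 10 weeks from 1 murine mesothelioma line that carries influenza hemagglutinin, and each came from a different mouse. Both agents were first given on the same day, when tumors measured 20 to 25 mm2. Both groups received cisplatin at 6 mg/kg, intraperitoneally. The cisplatin+ICB group also received 100 µg anti-CTLA-4 as 1 dose and 100 µg anti-PD-L1 as 3 doses. Whole tumors were collected on day 7 and sequenced as bulk RNA, so that fewer cells of a type and less RNA per cell cannot be told apart in any value below. The effect of ICB without chemotherapy was read from 5 tumors treated with ICB and 4 treated with PBS, from the same line and quantified in the same table.

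Cisplatin is a platinum drug that crosslinks DNA, blocks replication and activates p53. CTLA-4 and PD-1 are inhibitory receptors of T cells, and antibodies to CTLA-4 and to PD-L1, the ligand of PD-1, release T cells from that inhibition. Activated CD8 T cells secrete interferon gamma (IFNγ), which acts through its receptor on many cell types and induces antigen presentation, guanylate-binding proteins, T cell chemokines and PD-L1 itself.

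The 9 libraries held 25501936 to 32293323 estimated counts each. The library of cisplatin+ICB replicate 1 stood apart. Ribosomal protein mRNAs took 14.5% of its counts, against 3.64% to 8.70% in the other 17 tumors of the table, and mitochondrially encoded RNAs took 1.03%, against 1.54% to 4.82%. Its scaling factor by the trimmed mean of M-values (TMM) was 0.683, against 0.889 to 1.15. Short transcripts were high and long transcripts low in it. Genes with transcripts of up to 1858 bases lay at a median of 0.95 log2 units from their mean over the 18 tumors, and genes with transcripts of 4519.5 bases or more at a median of -1.16. Of the 17819 genes tested, 5610 were highest and 5482 lowest in this library. The tumor most like it by Spearman correlation across genes was PBS replicate 2 (0.958). The counts of called genes over all genes are given with this library (5 against 4 tumors) and without it (4 against 4). Many list and single-gene values are given only without it. It was left out with its expression values known, so the calls obtained without it are not an independent test.

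**Figure D1:**
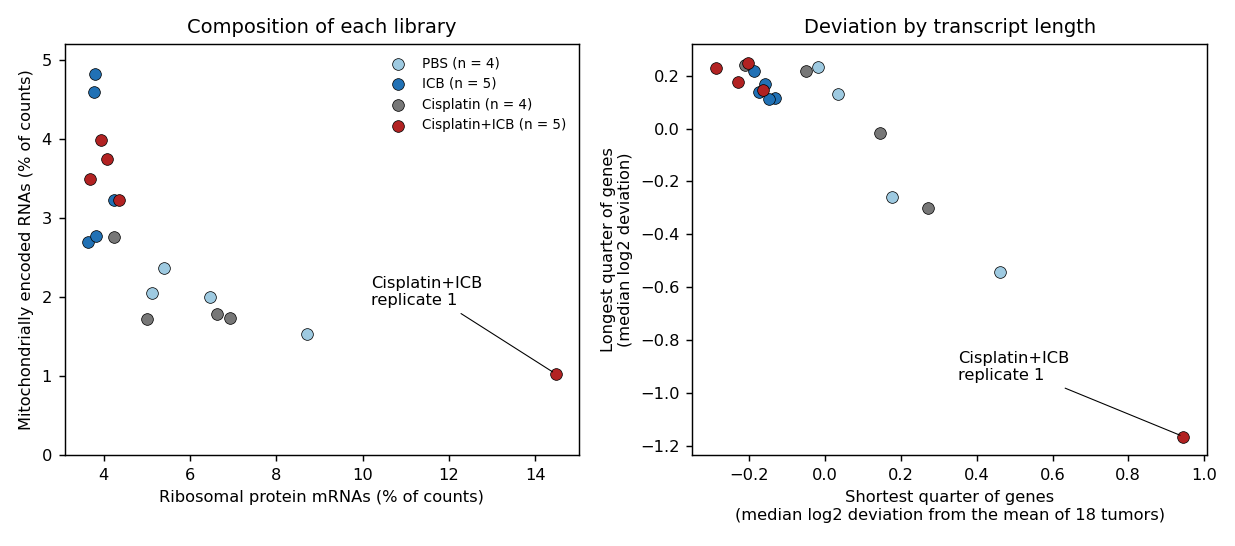
Left, share of counts from ribosomal protein mRNAs (x axis, percent) against mitochondrially encoded RNAs (y axis, percent). Right, median log2 deviation from the mean of 18 tumors for genes with the shortest transcripts (x axis) against genes with the longest (y axis). Each point is 1 tumor, colored by group, and cisplatin+ICB replicate 1 lies at 14.5% and 1.03% on the left and at 0.95 and -1.16 on the right, away from the other 17.

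With all 9 tumors, edgeR's quasi-likelihood test found no differentially expressed gene (DEG, a Benjamini-Hochberg adjusted p below 0.05 and an absolute log2 fold change above 0.5) among 17819 tested, 0% higher and 0% lower. This count of 0 covers every list and gene below, also where only the fit without replicate 1 is given. The smallest adjusted p was 0.0693. An unadjusted p below 0.05 was reached by 2530 genes, 1713 higher and 817 lower in cisplatin+ICB. DESeq2 called 783 DEGs on the same tumors, 714 higher (2.04% of genes with a p-value) and 69 lower (0.197%). Limma-voom with sample quality weights, in which replicate 1 received a weight of 0.0532 against 0.348 to 3.12 for the other tumors, called 6674. Without replicate 1, edgeR called 2114 DEGs among 17772 genes, 1477 higher (8.31%) and 637 lower (3.58%), with a smallest adjusted p of 0.00145. Without replicate 3 but with replicate 1 it called 536, of which 427 were among the 2114.

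The calls made without replicate 1 did not use that tumor, so its values can be set beside them. It lay above the highest cisplatin tumor for 18.5% of the 1477 higher DEGs and for 40.8% of all genes tested. It lay below the lowest cisplatin tumor for 12.9% of the lower DEGs and 41.6% of all genes. Of the tumors the calls did use, replicates 2, 4 and 5 were above the cisplatin range for 99.8%, 99.5% and 99.3% of the higher DEGs, and replicate 3 for 56%. Replicate 3 lay near the cisplatin tumors in most immune genes. Of its counts 4.36% were ribosomal and 3.23% mitochondrial, inside the range of the other tumors of the table. Composition also differed between the groups compared. Mitochondrial shares were 1.72% to 2.76% in the cisplatin tumors and 3.23% to 3.99% in cisplatin+ICB replicates 2 to 5. Ribosomal shares were 4.25% to 6.92% and 3.70% to 4.36%. Genes with the shortest transcripts lay at medians of -0.21, 0.15, -0.05 and 0.27 log2 units in cisplatin replicates 1 to 4. In cisplatin+ICB replicates 2 to 5 they lay at -0.29 to -0.16. For the longest transcripts the medians were -0.30 to 0.24 and 0.15 to 0.25. PBS and ICB tumors had medians of -0.02 to 0.46 and -0.19 to -0.13 for the shortest. The part of these differences in the calls was not tested. Over all genes, the 4 cisplatin+ICB tumors left after replicate 1 was removed did not overlap the cisplatin tumors in 8.99% of genes that were higher and 9.9% that were lower. With all 5 tumors these shares were 1.24% and 2.07%.

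**Figure D2:**
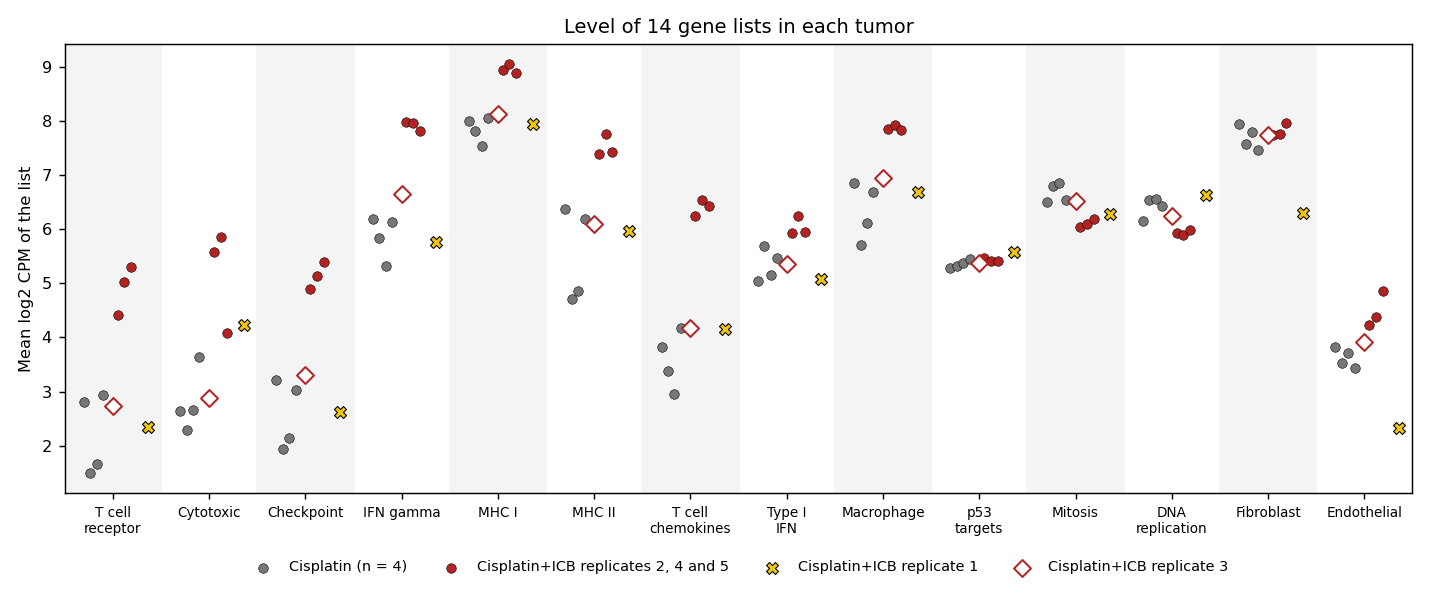
Mean log2 CPM (counts scaled to the TMM-adjusted library size; y axis) of 14 gene lists (x axis) in each tumor. Grey points are the 4 cisplatin tumors, red points are cisplatin+ICB replicates 2, 4 and 5, the open diamond is replicate 3 and the yellow cross is replicate 1. For the T cell receptor list, replicates 2, 4 and 5 lie at 4.43 to 5.31, replicate 3 at 2.74 and replicate 1 at 2.34, with the cisplatin tumors at 1.49 to 2.94.

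T cell receptor genes rose in cisplatin+ICB when replicate 1 was left out. Of the 16 genes tested for the receptor complex and its coreceptors, 16 rose and 0 fell (8.31% and 3.58% of all genes did), with a median log2 fold change of 2.29 against -0.01 over all genes. With replicate 1 edgeR called 0 of the 16 (median 2.11) and DESeq2 called 14. Cd8a (chr6:71373427-71379173, GRCm38), the coreceptor of cytotoxic T cells, stood at 8.2, 2.36, 2.18 and 5.87 CPM in cisplatin replicates 1 to 4. In cisplatin+ICB replicates 1 to 5 it stood at 2.82, 56.5, 7.56, 79.1 and 109 CPM. Replicates 1 and 3 lay inside the cisplatin range and the other 3 tumors far above it. Its log2 fold change was 3.80 ± 0.64 (SE; adjusted p = 0.00423) without replicate 1 and 3.45 ± 0.81 (adjusted p = 0.0791) with it. Cd3e, a signalling chain of the T cell receptor, changed by 2.90 ± 0.59 (adjusted p = 0.00883) without and 2.55 ± 0.73 (adjusted p = 0.121) with replicate 1. Cd4, the coreceptor of helper T cells, had the smaller values of 1.76 ± 0.50 (adjusted p = 0.0329) and 1.43 ± 0.59 (adjusted p = 0.267). When a further tumor was left out beside replicate 1, 6 of the 16 were called without cisplatin replicate 2 or 3, 7 to 9 without cisplatin+ICB replicate 5, 4 or 2, and 13 to 16 without any other.

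Of 12 genes for effector molecules of cytotoxic lymphocytes, 7 rose without replicate 1 (median 2.22) and 0 fell, against 8.31% and 3.58% of all genes. With replicate 1 edgeR called 0 and DESeq2 7. When 1 more tumor was left out, 2 rose without cisplatin replicate 2 and 5 to 7 without any other. Ifng, which encodes IFNγ, was at 0.783, 0.38, 0.234 and 0.62 CPM in the cisplatin tumors. It was at 0.851, 12.5, 0.916, 12.3 and 8.57 CPM in cisplatin+ICB replicates 1 to 5, so all 5 were above all 4 cisplatin tumors, by little in replicates 1 and 3. The log2 fold change of Ifng was 4.12 ± 0.61 (adjusted p = 0.00252) without and 3.79 ± 0.73 (adjusted p = 0.0693) with replicate 1. Prf1, the pore-forming protein perforin, was at 13.9 to 25.3 CPM in cisplatin tumors and at 24.5, 110, 20.7, 134 and 77.3 CPM in cisplatin+ICB. Gzmb, the serine protease granzyme B, changed by 2.09 ± 0.46 (adjusted p = 0.0121) without replicate 1 and 1.91 ± 0.44 (adjusted p = 0.0779) with it. The granzymes of its cluster are close copies whose reads can be divided among them, so the value of 3.18 for Gzmf is uncertain. Other granzymes differed among the cisplatin+ICB tumors. Gzmc was at 35 to 76.7 CPM under cisplatin and at 100, 127, 45.2, 149 and 17.7 CPM in cisplatin+ICB replicates 1 to 5, highest in replicates 2 and 4 and below all cisplatin tumors in replicate 5.

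Of 9 checkpoint receptors and ligands 8 rose without replicate 1 (median 2.63, and 8.31% of all genes rose). When 1 more tumor was left out, 4 rose without cisplatin replicate 2 and 6 to 8 without any other. Pdcd1, which encodes PD-1, was at 6.89, 2.24, 2.54 and 8.82 CPM under cisplatin and at 12.8, 36.7, 7.21, 53.7 and 94.8 CPM under cisplatin+ICB. Its log2 fold change was 3.27 ± 0.69 (adjusted p = 0.0112), and 3.00 ± 0.70 (adjusted p = 0.0791) with replicate 1. Cd274 (chr19:29367455-29388095), which encodes PD-L1, the protein that 1 of the given antibodies binds, was at 23.2, 10.7, 10.1 and 15.8 CPM under cisplatin. It was at 16.9, 212, 36.5, 159 and 142 CPM under cisplatin+ICB, where replicate 1 alone overlapped the cisplatin tumors. The change was 3.26 ± 0.42 (adjusted p = 0.00145) without and 2.93 ± 0.56 (adjusted p = 0.0693) with replicate 1. Ctla4, the target of the other antibody, was the member that was not called, at 2.48 to 8.05 CPM under cisplatin and 4.79 to 13 CPM under cisplatin+ICB (log2 fold change 0.60 ± 0.46, adjusted p = 0.354).

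Genes of regulatory T cells and natural killer (NK) cells rose in part (8.31% of all genes rose). Of 7 regulatory T cell genes 3 rose without replicate 1 (median 1.19), and these were Il2ra, Ikzf2 and Icos, which activated T cells also express. Foxp3, the defining transcription factor of the lineage, was at 8.67, 3.19, 5.05 and 3.81 CPM under cisplatin and at 0.425, 6.45, 9.6, 7.45 and 12.3 CPM under cisplatin+ICB. Its log2 fold change was 0.84 ± 0.41 (adjusted p = 0.155) without replicate 1 and 0.49 ± 0.60 (adjusted p = 0.813) with it. Of 8 NK cell genes 4 rose (median 1.15), namely Klrk1, Klrd1, Eomes and Tbx21, which cytotoxic T cells express as well. When 1 more tumor was left out, 0 to 4 of the regulatory T cell genes and 1 to 4 of the NK cell genes rose, with 0 or 1 in each list without cisplatin replicate 2 or 3 or cisplatin+ICB replicate 2, 4 or 5. Ncr1, a receptor largely limited to NK cells and related innate lymphocytes, was at 6.16 to 17.5 CPM under cisplatin and 8.24 to 25.6 CPM under cisplatin+ICB, with a change of 0.21 ± 0.37 (adjusted p = 0.711). Members named from counts of 5 or fewer, here and below, were picked after their values were seen.

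**Figure D3:**
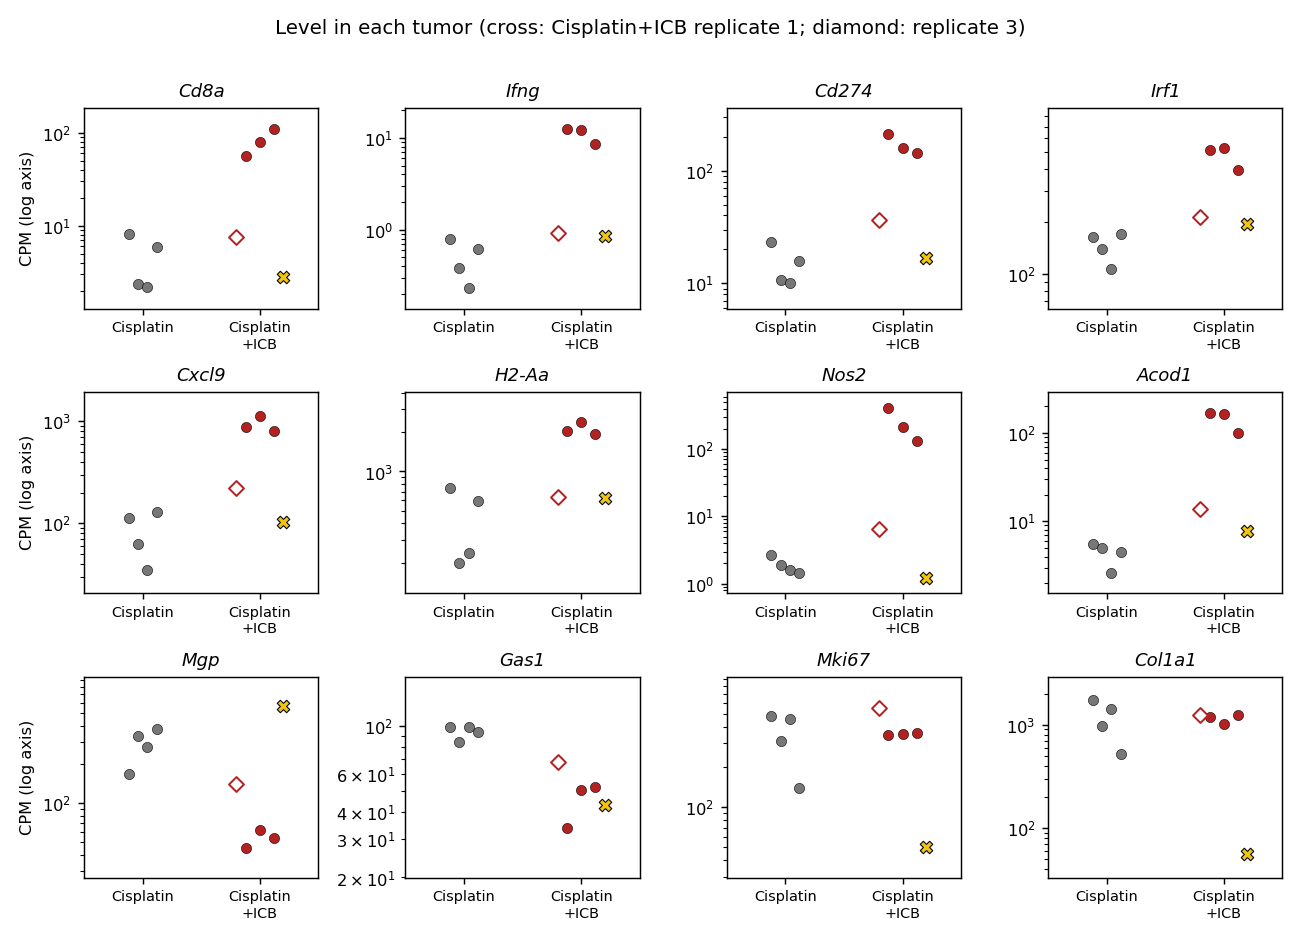
CPM on a log axis (y axis) for 12 genes in the 4 cisplatin tumors (grey) and the 5 cisplatin+ICB tumors. Red points are replicates 2, 4 and 5, the diamond is replicate 3 and the cross is replicate 1. Cd8a in replicates 2, 4 and 5 lies at 56.5, 79.1 and 109 CPM, with replicate 3 at 7.56 and replicate 1 at 2.82 CPM, whereas Mgp lies at 45, 61.7 and 53.6 CPM in those 3 tumors and at 564 CPM in replicate 1.

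By count, IFNγ signalling genes and the GTPases that IFNγ induces were the list with the most members called. By share, the T cell receptor list was higher, with 16 of 16, and 8.31% of all genes rose. Of 22 tested, 20 rose without replicate 1, with a median log2 fold change of 1.69, and 16 to 21 rose when 1 more tumor was left out. With replicate 1 edgeR called 0, DESeq2 18 and voom with quality weights 21. In 17 of the 22 the 4 cisplatin+ICB tumors lay above all cisplatin tumors, against 8.99% over all genes. The 2 that were not called are the receptor chains Ifngr1 and Ifngr2, with adjusted p of 0.0711 and 0.742. Irf1, a transcription factor that interferons induce, was at 108 to 170 CPM under cisplatin and at 195, 516, 214, 527 and 397 CPM under cisplatin+ICB, so that all 5 tumors were above all 4. Its change was 1.57 ± 0.27 (adjusted p = 0.00435) without and 1.35 ± 0.29 (adjusted p = 0.0693) with replicate 1. Gbp2, a guanylate-binding protein, reached 1030, 945 and 848 CPM in replicates 2, 4 and 5, with 307 in replicate 3 and 201 in replicate 1, against 94.7 to 203 CPM under cisplatin. Gbp2 and Gbp2b are similar in sequence, and reads may be divided between them.

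The promoters of this list are shown because its members moved together and because the response elements of interferon-induced genes are known. The gamma-activated sequence (GAS) was searched as TTCNNNGAA, which reads the same on both strands, and the interferon-stimulated response element (ISRE) as GAAA, any 2 bases and GAAA again, on either strand, in the 250 bases before the start site. RefSeq windows (GRCm38.p6) were found for 17 of the 22 genes. A GAS match was present in 8 of these (47.1%) and an ISRE match in 11 (64.7%), against 6.17% and 2.87% of the 12130 tested genes with a window. Over the higher DEGs with a window the shares were 7.84% and 5.68%, and over the lower DEGs 6.99% and 1.97%. The 5 windows below belong to the members of the list with the smallest adjusted p whose RefSeq start lies within 10 bases of the annotated start and which hold a match, and capitals mark GAS and ISRE matches. They run 5′ to 3′ along the gene, from chr3:142594597-142594846 for Gbp2b, chr3:142530086-142530335 for Gbp7, chr11:58199306-58199555 for Igtp and chr11:53769764-53770013 for Irf1, on the plus strand, and chr11:49064213-49064462 for Tgtp2, on the minus strand.
Gbp2b: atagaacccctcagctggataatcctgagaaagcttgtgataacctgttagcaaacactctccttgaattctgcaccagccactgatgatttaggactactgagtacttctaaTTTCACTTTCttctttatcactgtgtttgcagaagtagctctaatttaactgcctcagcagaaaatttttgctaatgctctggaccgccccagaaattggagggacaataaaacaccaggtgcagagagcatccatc
Gbp7: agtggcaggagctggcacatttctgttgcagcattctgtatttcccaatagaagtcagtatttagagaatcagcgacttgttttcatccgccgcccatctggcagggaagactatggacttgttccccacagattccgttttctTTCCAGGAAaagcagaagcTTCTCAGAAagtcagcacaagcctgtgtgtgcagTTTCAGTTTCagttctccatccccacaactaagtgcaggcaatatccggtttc
Igtp: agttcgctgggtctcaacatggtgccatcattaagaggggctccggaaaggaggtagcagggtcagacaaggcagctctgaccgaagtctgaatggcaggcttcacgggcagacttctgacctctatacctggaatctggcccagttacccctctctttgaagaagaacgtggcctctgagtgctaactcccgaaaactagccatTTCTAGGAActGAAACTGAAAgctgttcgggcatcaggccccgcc
Irf1: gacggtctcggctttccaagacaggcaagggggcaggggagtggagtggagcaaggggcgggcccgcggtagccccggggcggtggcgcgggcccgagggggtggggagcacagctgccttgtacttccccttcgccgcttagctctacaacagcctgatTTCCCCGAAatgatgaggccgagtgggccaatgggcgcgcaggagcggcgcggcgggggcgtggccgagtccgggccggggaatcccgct
Tgtp2: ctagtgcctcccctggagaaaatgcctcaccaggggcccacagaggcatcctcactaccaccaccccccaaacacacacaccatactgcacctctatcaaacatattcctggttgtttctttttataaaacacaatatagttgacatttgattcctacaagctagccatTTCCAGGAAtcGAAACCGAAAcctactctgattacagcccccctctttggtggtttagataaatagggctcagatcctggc
In Igtp the GAS lay 45 to 37 bases before the start and the ISRE 34 to 25, and in Tgtp2 they lay at 81 to 73 and 70 to 61, so the same pair with the same gap stood in both. Gbp7 held 2 GAS matches and 1 ISRE, Irf1 a single GAS at 90 to 82 bases before the start, and Gbp2b a single ISRE at 137 to 128. A match describes letters in this window and is not evidence of binding.

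The genes behind these windows had the following levels. Gbp2b was at 82.9 to 164 CPM under cisplatin and at 143, 1350, 317, 1240 and 1050 CPM in cisplatin+ICB replicates 1 to 5, with a change of 2.91 (SE 0.36, adjusted p = 0.00145) without replicate 1. Gbp7 was at 53.3 to 120 CPM and at 30.5, 371, 184, 337 and 320 CPM. Igtp, an immunity-related GTPase, was at 62.5 to 122 CPM and at 74, 479, 192, 475 and 449 CPM. Tgtp2, a T cell-specific GTPase with the near-identical neighbor Tgtp1, was at 91.9 to 171 CPM and at 150, 457, 205, 421 and 379 CPM. In each of the 4 genes replicate 1 lay within or below the cisplatin range, and the other 4 tumors, replicate 3 included, lay above it.

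Genes of antigen presentation rose in part (8.31% of all genes rose). Of 13 genes of MHC class I and the immunoproteasome 8 rose without replicate 1 (median 0.88), and 5 to 12 did when 1 more tumor was left out. Tap1, a subunit of the peptide transporter, was at 194, 164, 128 and 189 CPM under cisplatin and at 173, 459, 226, 497 and 415 CPM under cisplatin+ICB, a change of 1.30 ± 0.22 (adjusted p = 0.00409) without and 1.07 ± 0.26 (adjusted p = 0.0831) with replicate 1. B2m, the light chain of MHC class I, had a change of 0.75 ± 0.25 (adjusted p = 0.0552). Psmb9, an immunoproteasome subunit that shares its start region with Tap1, was at 59.9 to 139 CPM and at 231, 178, 95.6, 205 and 187 CPM. Replicate 1 was here the highest of the 9 tumors, and the change of Psmb9 was 0.84 ± 0.29 (adjusted p = 0.0591) without it.

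Of 10 MHC class II genes 7 rose without replicate 1 (median 1.57, and 8.31% of all genes rose). H2-Aa, a class II chain, was at 751, 198, 239 and 596 CPM under cisplatin and at 628, 2040, 634, 2380 and 1940 CPM under cisplatin+ICB, so that replicates 1 and 3 overlapped the cisplatin tumors. Its change was 2.02 ± 0.54 (adjusted p = 0.0258) without and 1.77 ± 0.54 (adjusted p = 0.14) with replicate 1. Cd74, the invariant chain, changed by 2.25 ± 0.53 (adjusted p = 0.0158) without replicate 1 and 1.91 ± 0.64 (adjusted p = 0.173) with it. The class II calls were lost, 0 of 10, when cisplatin replicate 2 or cisplatin replicate 3 was also left out, and 9 were called without cisplatin+ICB replicate 3. BALB/c mice carry other MHC alleles than the strain of the mouse reference genome, which can lower the counts of classical MHC genes in every group.

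Genes best known as targets of type I interferon were read next. Of 17 tested, 4 rose without replicate 1 (median 0.59, and 8.31% of all genes rose), namely Ifit2, Oasl2, Rsad2 and Zbp1, and 1 to 7 rose in the fits that left out 1 more tumor. Ifit1, an RNA-binding antiviral protein, was at 33.6, 72.5, 39.8 and 55.2 CPM under cisplatin and at 61.8, 54.4, 34.5, 69.4 and 54.6 CPM under cisplatin+ICB. Isg15, a ubiquitin-like protein, was at 19.2 to 53.5 CPM and 25.4 to 71.3 CPM. Their changes were 0.13 ± 0.30 (adjusted p = 0.769) and 0.33 ± 0.31 (adjusted p = 0.449), and the 2 groups overlapped for both.

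Among chemokines that draw T cells and their receptors, 9 of 10 rose without replicate 1 (median 2.67, and 8.31% of all genes rose). When 1 more tumor was left out, 6 to 10 rose. Cxcl9, a ligand of CXCR3 that IFNγ induces, was at 113, 62.8, 35.1 and 128 CPM under cisplatin and at 102, 887, 221, 1130 and 793 CPM under cisplatin+ICB. The change was 3.20 ± 0.49 (adjusted p = 0.00298) without and 2.88 ± 0.59 (adjusted p = 0.0693) with replicate 1. Ccl5, made by activated T and NK cells, was at 9.1 to 17.5 CPM and at 22.6, 158, 18.9, 179 and 140 CPM, above the cisplatin range in all 5 tumors. Cxcr6, a receptor on tissue-resident T cells, changed by 2.90 ± 0.73 (adjusted p = 0.0213) without replicate 1 and 2.67 ± 0.71 (adjusted p = 0.0987) with it. The chemokines Ccl3 and Ccl4, made by activated T cells and macrophages, had changes of 4.12 and 2.95.

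Among myeloid genes the activation genes Nos2 and Acod1 rose. Nos2 (chr11:78920787-78960254), the inducible nitric oxide synthase of activated macrophages, had the largest change among the genes that met the naming rule, 6.73 ± 0.90 (adjusted p = 0.00157) without replicate 1. It was at 2.63, 1.9, 1.61 and 1.42 CPM under cisplatin and at 1.22, 411, 6.56, 213 and 132 CPM under cisplatin+ICB, replicate 1 being the lowest of the 9 tumors. With replicate 1 the change of Nos2 was 6.33 ± 1.22 (adjusted p = 0.0693). Acod1 (chr14:103046977-103056573), which makes itaconate in activated macrophages, was at 5.48, 4.98, 2.61 and 4.48 CPM and at 7.87, 170, 13.9, 165 and 101 CPM. All 5 tumors were above all 4 for Acod1, and its change was 4.74 ± 0.61 (adjusted p = 0.00145) without and 4.38 ± 0.77 (adjusted p = 0.0693) with replicate 1. Of 14 macrophage genes 4 rose without replicate 1 (median 0.98, and 8.31% of all genes rose), namely Nos2, Cd68, C1qc and Mertk. When 1 more tumor was left out, 2 rose without cisplatin replicate 2 or 3 or cisplatin+ICB replicate 2, 4 or 5, and 5 to 7 without any other. Adgre1, which encodes the macrophage marker F4/80, changed by 1.23 ± 0.41 (adjusted p = 0.0567) and the mannose receptor Mrc1 by 0.61 ± 0.41 (adjusted p = 0.296).

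Of 5 monocyte genes Ly6c2 and Chil3 rose without replicate 1 (list median 0.08, and 8.31% of all genes rose). Ccr2, the receptor that brings monocytes out of the marrow, was at 242, 151, 130 and 324 CPM under cisplatin and at 406, 142, 220, 247 and 163 CPM under cisplatin+ICB, a change of -0.10 ± 0.34 (adjusted p = 0.849) without replicate 1 and 0.15 ± 0.35 (adjusted p = 0.912) with it. Of 7 neutrophil genes tested Csf3r, Cxcr2 and Mmp8 rose (median 1.57). Cxcr2, a neutrophil chemokine receptor, was at 1.9 to 2.89 CPM and at 2.55, 10.7, 3.34, 10.1 and 8.04 CPM. S100a8, an abundant neutrophil protein, was highest in replicate 1, at 22.1 CPM, against 2.04 to 6.02 CPM under cisplatin and 4.19 to 10.1 CPM in the other 4 tumors. Of 9 dendritic cell genes Clec9a alone was called, higher, a share near the 8.31% of all genes (median 0.46). Xcr1, a marker of the same conventional dendritic cells, changed by 0.66 ± 0.39 (adjusted p = 0.237). Ccr7, the homing receptor of mature dendritic cells, changed by 1.03 ± 0.44 (adjusted p = 0.112). With 1 more tumor left out, 0 to 2 monocyte, 1 to 3 neutrophil and 0 or 1 dendritic cell genes rose.

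In the axis of TNF, IL-1 and IL-6, 6 of 13 genes rose without replicate 1 (median 1.46, and 8.31% of all genes rose). Leaving out 1 more tumor gave 4 to 9. Tnf was at 3.95, 2.81, 1.77 and 3.86 CPM under cisplatin and at 4.84, 21.5, 4.25, 23.3 and 21 CPM under cisplatin+ICB, above the cisplatin range in all 5 tumors. Its change was 2.55 ± 0.49 (adjusted p = 0.00722) without and 2.27 ± 0.51 (adjusted p = 0.0779) with replicate 1. Il1a, an alarmin of the IL-1 family, was at 0.266 to 0.845 CPM and at 0.744, 19.6, 0.945, 12.1 and 3.49 CPM (change 4.16 ± 0.79, adjusted p = 0.00721). Il1b changed by 1.63 ± 0.59 (adjusted p = 0.0708), and Il6 by 0.11 ± 0.59 (adjusted p = 0.904) at levels of 0.282 to 1.12 and 0.502 to 3.14 CPM.

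B cell and plasma cell genes varied within both groups. Of 11 tested, the immunoglobulin kappa constant gene Igkc alone was called without replicate 1, higher (median 0.84). This share was near the 8.31% of all genes. With 1 more tumor left out, 0 to 3 rose. Igkc was at 9.77, 1.22, 2.38 and 28.5 CPM under cisplatin and at 7.71, 116, 8.89, 76.8 and 310 CPM under cisplatin+ICB. Jchain, which joins secreted IgA and IgM, was at 0.342 to 5.66 CPM and at 2.87, 21.8, 2.57, 9.72 and 47.8 CPM, a change of 3.09 ± 1.03 (adjusted p = 0.0552).

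Genes tied to the action of cisplatin, which both groups received, were read against the shares of all genes called (8.31% higher and 3.58% lower). Of 16 p53 targets the death receptor gene Fas and the BH3-only gene Pmaip1 rose and Phlda3 fell without replicate 1, with a list median of 0.05. Their changes were 1.41, 1.52 and -0.68, and for ICB versus PBS, without cisplatin, 1.905, 2.20 and -1.13. Of the list, 0 to 3 rose and 0 to 3 fell when 1 more tumor was left out. Cdkn1a, the cell cycle inhibitor p21, was at 177, 219, 216 and 230 CPM under cisplatin and at 261, 236, 187, 205 and 221 CPM under cisplatin+ICB. Mdm2, the ubiquitin ligase of p53, was at 74.7 to 99.2 CPM and at 140, 98.2, 90.5, 81.4 and 94.9 CPM. The changes without replicate 1 were 0.07 ± 0.15 for Cdkn1a and 0.11 ± 0.15 for Mdm2 (adjusted p = 0.769 and 0.595). Of 14 crosslink repair genes Fancb alone was called, lower (list median -0.09). Fancd2, the hub of the Fanconi anemia pathway, changed by -0.17 ± 0.25 (adjusted p = 0.632).

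Most cell division genes had values below 0 without replicate 1. Of all genes 3.58% were called lower. The cyclins Ccnb1 and Ccnb2 fell among 20 mitosis genes (list median -0.54, and 17 of 20 below 0), while 0 of 23 DNA replication genes were called by edgeR (median -0.37, and 22 of 23 below 0). DESeq2 called 7 and 3 on the same tumors, all lower. When 1 more tumor was left out, edgeR called 7 genes lower in each list without cisplatin replicate 1, 4 and 2 without cisplatin+ICB replicate 3, and 0 without any other. Voom with quality weights on all tumors called 14 and 12, all lower. Mki67, a marker of cycling cells, was at 480, 314, 452 and 140 CPM under cisplatin and at 50.5, 349, 555, 350 and 360 CPM under cisplatin+ICB. Its change was 0.28 ± 0.47 without replicate 1 and -0.06 ± 0.59 with it (adjusted p = 0.686 and 0.985). Pcna, the replication clamp, was at 200 to 352 CPM and at 695, 188, 211, 190 and 194 CPM, so its change was -0.51 ± 0.21 (adjusted p = 0.0945) without replicate 1 and 0.04 ± 0.35 (adjusted p = 0.984) with it. Mki67 has a long and Pcna a short transcript, and replicate 1 was the lowest tumor for the first and the highest for the second. Without replicate 1, the members above 0 were Mki67, Cenpe (0.15) and Cenpf (0.20) for mitosis and Pole (0.22) for DNA replication. The lowest were Cdk1 (-0.95) and Rfc4 (-0.80). With replicate 1 set aside, the cisplatin+ICB tumors had lower medians for the shortest transcripts than cisplatin replicates 2, 3 and 4. Cisplatin replicate 1 lay within their range. Whether transcript length bears on these values or on the list medians was not tested. Top2a and Mcm2 changed by -0.20 ± 0.23 and -0.28 ± 0.16 (adjusted p = 0.539 and 0.222).

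Of 16 hypoxia and glycolysis genes Slc2a1 and Hk2 rose and Car9 fell without replicate 1 (8.31% and 3.58% of all genes did). Slc2a1, the glucose transporter GLUT1, was at 58.5 to 79.4 CPM and at 89.7, 140, 68.5, 138 and 98.1 CPM (change 0.77 ± 0.23, adjusted p = 0.0393). Car9, a carbonic anhydrase induced by hypoxia, was at 13.7, 27.9, 25.6 and 15.9 CPM and at 45.6, 5.74, 14.1, 8.2 and 4.08 CPM (change -1.32 ± 0.38, adjusted p = 0.0354). The list median was -0.13 without replicate 1 and 0.28 with it. Leaving out 1 more tumor beside replicate 1 gave 0 to 3 higher and 0 to 2 lower. Replicate 1 was above the cisplatin range in 12 of the 16, and in 40.8% of all genes tested.

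Stromal genes were read against the same shares of all genes, 8.31% higher and 3.58% lower. Of 16 fibroblast and matrix genes Thy1, which T cells also express, rose and Sparc fell (median 0.06). Col1a1, the main collagen of fibroblasts, was at 1720, 972, 1410 and 525 CPM under cisplatin and at 55.7, 1190, 1240, 1010 and 1250 CPM under cisplatin+ICB, with a change of 0.08 ± 0.46 (adjusted p = 0.913) without replicate 1 and -0.29 ± 0.65 (adjusted p = 0.909) with it. Dcn, a matrix proteoglycan, changed by 0.62 ± 0.49 (adjusted p = 0.367). Of 11 endothelial genes Pecam1, Vcam1 and Icam1 rose without replicate 1 (median 0.64), and 2 to 5 rose with 1 more tumor left out. Vcam1, an adhesion molecule that inflamed endothelium displays, was at 106 to 127 CPM and at 85.8, 387, 132, 392 and 276 CPM (change 1.42 ± 0.28, adjusted p = 0.00759), and Pecam1 changed by 0.79 ± 0.22 (adjusted p = 0.0309).

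Markers of other tissues were read in the same tumors. The labelled tumor type was represented by Msln, mesothelin, at 212 to 307 CPM under cisplatin and at 656, 148, 266, 131 and 138 CPM under cisplatin+ICB (change -0.62 ± 0.35, adjusted p = 0.211, without replicate 1), and by Pdpn, at 64 to 106 and 58.7 to 241 CPM. Of the 10 mesothelial and tumor cell genes 6 passed the filter and 0 were called. Upk3b, a defining mesothelial marker, was under 3 counts or near it in all 9 tumors (0 to 0.0669 CPM), and Wt1 was at 0.1 to 1.18 CPM. The 12 skeletal muscle genes summed to 149.6 to 488.8 CPM under cisplatin and to 106.1, 466, 1193, 332.4 and 1398 CPM in cisplatin+ICB replicates 1 to 5, and 0 were called (median log2 fold change 1.51 without replicate 1). Acta1, skeletal actin, changed by 1.45 ± 1.34 (adjusted p = 0.441). The 8 adipocyte genes, with Adipoq at 4.48 to 11.8 and 4.81 to 28.5 CPM, and the keratinocyte genes, 4 of 6 tested, with Krt5 at 0 to 1.57 and 0.0321 to 2.42 CPM, had 0 calls. The 5 erythroid genes, Hba-a1 among them, summed to 39.58 to 117.8 CPM under cisplatin and to 757 CPM in replicate 1 (43.93 to 210.2 CPM in the other 4). The high endothelial venule genes, with Glycam1 at 0.0669 to 0.472 and 0.16 to 0.717 CPM, had 2 of 5 members above the filter and 0 calls. Muscle genes were highest in cisplatin+ICB replicates 5 and 3. The part of these tissues in the immune and matrix changes was not tested.

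**Figure D4:**
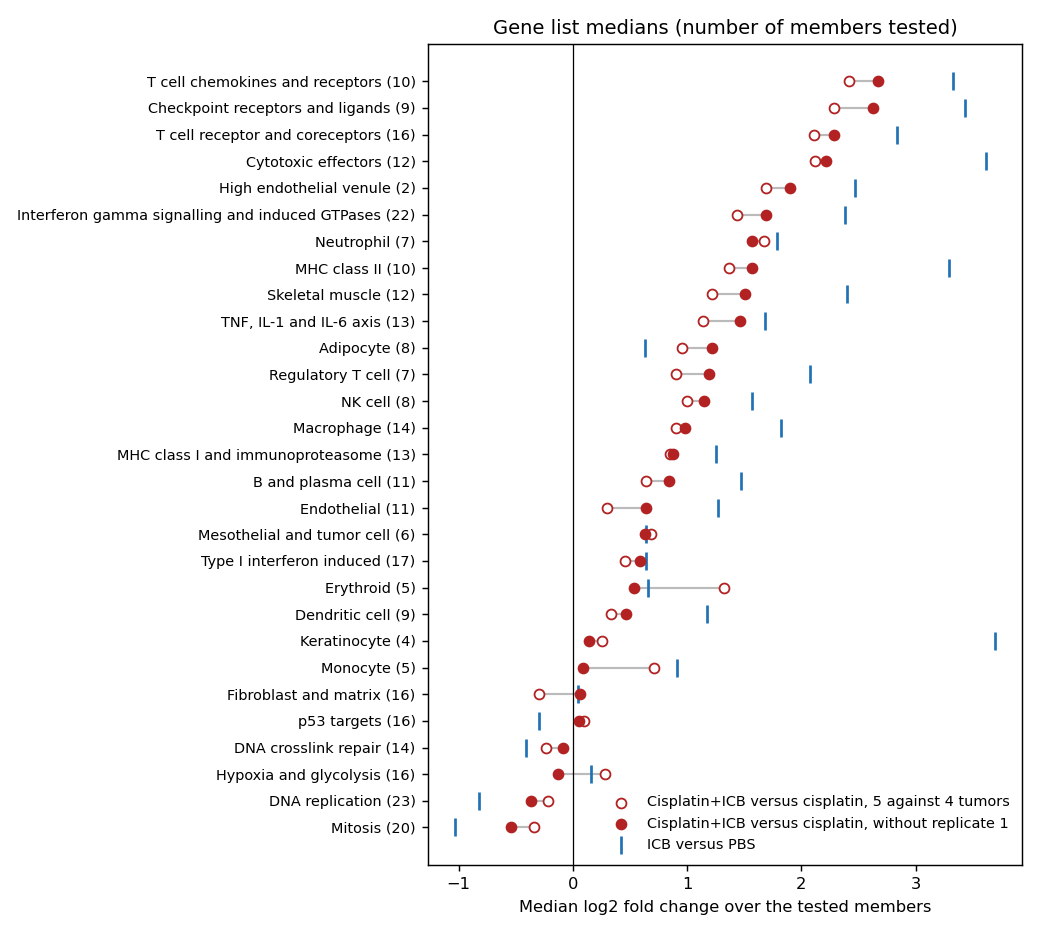
Median log2 fold change (x axis) over the tested members of 29 gene lists (y axis, with the number tested). Open circles are cisplatin+ICB versus cisplatin with all 9 tumors, filled circles the same without replicate 1, and blue bars ICB versus PBS. The erythroid list moves from 1.32 to 0.54 and the monocyte list from 0.71 to 0.08 when replicate 1 is left out, while the T cell receptor list moves from 2.11 to 2.29.

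Outside the lists, genes were named by the size of their change without replicate 1 among DEGs without overlap between groups and with a mean count of at least 50. The largest rises, beside Nos2, Acod1, Ifng and Il1a, were H2-M2, a nonclassical MHC gene of myeloid cells, and Slc17a6, a vesicular glutamate transporter. H2-M2 was at 0.038 to 0.626 CPM under cisplatin and at 0.585, 10.4, 0.739, 13.3 and 3.62 CPM under cisplatin+ICB (change 4.53 ± 0.96, adjusted p = 0.0109). Slc17a6 was at 0.19 to 0.47 CPM and at 0.16, 4.65, 0.532, 6.24 and 11.2 CPM (change 4.21 ± 0.70, adjusted p = 0.00409). Both were near the floor of detection in the cisplatin tumors, so their fold changes depend on few counts there.

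The 6 largest falls were Mgp, Col10a1, Kera, Gas2, C1qtnf3 and Mcpt2. Replicate 1 lay above the cisplatin range in Mgp, Gas2 and Mcpt2, inside it in Col10a1 and C1qtnf3, and below it in Kera. Mgp, the matrix Gla protein that inhibits calcification, was at 169, 332, 273 and 376 CPM under cisplatin and at 564, 45, 142, 61.7 and 53.6 CPM under cisplatin+ICB. The change of Mgp was -1.90 ± 0.48 (adjusted p = 0.0217) without and -0.73 ± 0.65 (adjusted p = 0.711) with replicate 1. Col10a1, the collagen of hypertrophic cartilage, was at 5.01, 18.6, 12.7 and 5.69 CPM and at 11.6, 0.385, 4.76, 1.12 and 0.343 CPM (change -2.62 ± 0.82, adjusted p = 0.0468). Kera, a small proteoglycan of the corneal and connective matrix, was at 3.16 to 7.61 CPM and at 2.23, 0.225, 2.3, 0.9 and 0.873 CPM, below the cisplatin range in all 5 tumors (change -2.27 ± 0.69, adjusted p = 0.044).

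Gas2, a cytoskeletal protein of growth-arrested cells, was at 62.1 to 115 CPM and at 178, 14.5, 38.8, 21.8 and 20.4 CPM (change -1.71 ± 0.38, adjusted p = 0.0125). The secreted protein gene C1qtnf3 changed by -1.71 ± 0.36 (adjusted p = 0.0106). Mcpt2, a mast cell protease with close paralogs, was at 10 to 21.6 CPM and at 33.9, 3.18, 2.95, 3.82 and 5.74 CPM (change -1.75 ± 0.49, adjusted p = 0.0312). In all 6 genes the other 4 cisplatin+ICB tumors lay below all cisplatin tumors, as the naming rule required.

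The genes with the smallest p when all 9 tumors were used passed a mean count of at least 50. On the higher side these were Acod1, Serpina3g, Serpina3f and Ms4a8a, and on the lower side they included Mxra8, Klhl5 and Gas1, each with an adjusted p of 0.0693 by edgeR and with no overlap between 5 and 4 tumors. Serpina3g, a serine protease inhibitor of activated lymphocytes and macrophages, was at 57, 25.4, 22.6 and 56.1 CPM under cisplatin and at 96.9, 382, 92.7, 378 and 317 CPM under cisplatin+ICB, a change of 2.65 ± 0.47 with replicate 1. Serpina3f is a neighboring close copy, and reads may be shared between them. Gas1, a membrane protein that binds Hedgehog ligands, was at 98.8, 84.1, 98.8 and 93.6 CPM and at 42.9, 33.9, 67.7, 50.7 and 52.1 CPM, a change of -0.92 ± 0.19. Mxra8, a matrix remodelling-associated surface protein, was at 112 to 141 CPM and at 36.9, 51.1, 86.2, 66.8 and 56.1 CPM, and Klhl5, a kelch protein, at 161 to 199 CPM and at 93.6, 92.6, 144, 102 and 84.3 CPM. In these 3 lower genes replicate 1 lay below the cisplatin range with the other cisplatin+ICB tumors, and replicate 3 stood nearest to that range.

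The change brought by ICB in cisplatin-treated tumors was set beside the change brought by ICB alone, ICB versus PBS, which shares no tumor with it. In the fit without replicate 1, ICB versus PBS gave 3971 higher (22.3%) and 3802 lower (21.4%) DEGs of 17772. Of the 1477 genes higher with cisplatin, 1445 were also higher with ICB alone, which is 97.8% of the first list and 36.4% of the second. Of the 637 lower genes 597 were also lower, 93.7% and 15.7%. The sign was the same for 1476 and 637 of them, against 87% and 88.6% of all genes on each side. The median change of the higher DEGs was 1.46 with cisplatin and 2.04 without, and of the lower DEGs -0.79 and -1.03.

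**Figure D5:**
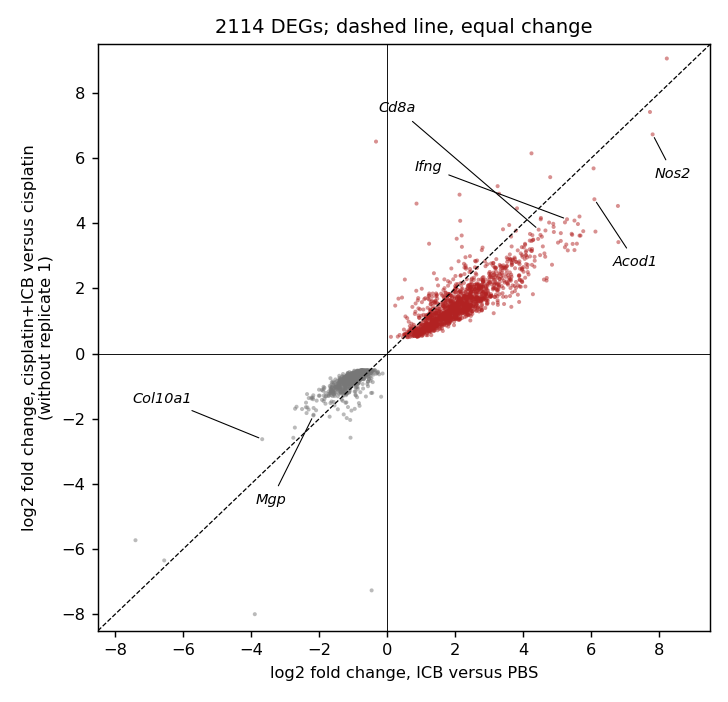
Log2 fold change of the 2114 DEGs for ICB versus PBS (x axis) and for cisplatin+ICB versus cisplatin without replicate 1 (y axis). Each point is a gene, red where higher and grey where lower in cisplatin+ICB, and the dashed line marks equal change. Of the higher DEGs 90.3% and of the lower DEGs 84% lie nearer 0 on the y axis than on the x axis.

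The difference between these 2 effects was tested directly, as an interaction across all 4 groups. EdgeR called 0 genes (0%), both with replicate 1 (smallest adjusted p 0.564, 1273 genes at an unadjusted p below 0.05) and without it (0%, smallest adjusted p 0.831, 931 genes, or 5.24%). DESeq2 called 1 and 2 genes and voom with quality weights 3 and 0. Most of the higher DEGs, 1334 of 1477, had a smaller value with cisplatin, and 215 of the 1477 had an unadjusted p below 0.05 for the difference. Of the lower DEGs 535 of 637 had a less negative value with cisplatin, and 18 of the 637 had such a p. A p that misses the threshold does not show that both effects were of 1 size. The 4 cisplatin+ICB tumors of this fit include replicate 3, which was above the cisplatin range for 56% of the higher DEGs. Cd8a was at 7.56 CPM in replicate 3 and at 63.9 to 187 CPM in the ICB tumors. The part of replicate 3 in the smaller values was not tested. The difference for Cd8a was -0.65 ± 0.80, for Ifng -1.16 ± 0.81 and for Cd274 -0.76 ± 0.54, each with an adjusted p of 0.831 or more.

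MHC class II genes had the most unadjusted calls for the difference of any list, 8 of 10 at p below 0.05 and all 10 below 0, with a median of -1.60. The median change of this list was 1.57 with cisplatin and 3.29 for ICB versus PBS. H2-Aa differed by -1.77 ± 0.72 and Cd74 by -1.71 ± 0.71, with an adjusted p of 0.831 for both by edgeR. The IFNγ list had 22 of 22 members below 0 with a median of -0.64 and 0 at an unadjusted p below 0.05. Of all genes 49.4% were below 0. Of the 1477 higher DEGs 90.3% were below 0, and of the 637 lower DEGs 84% were above 0. These signs were thus common to most genes that rose or fell and not particular to the lists. Mitosis and DNA replication genes had positive differences throughout, with 0 of 20 and 0 of 23 below 0 (medians 0.48 and 0.46), their medians being -0.54 and -0.37 with cisplatin and -1.03 and -0.83 for ICB versus PBS. Crebrf, a regulator of the CREB3 stress response named after its values were seen, was called by DESeq2 with and without replicate 1. It was at 27.9 to 31.8 CPM under cisplatin and 28.2 to 36.4 CPM under cisplatin+ICB, against 17.8 to 21.5 CPM under PBS and 38.7 to 59.8 CPM under ICB. Its difference was -1.08 ± 0.21 (adjusted p = 0.004, DESeq2, without replicate 1). The other genes called were unnamed gene models at 2.3 CPM or less in every tumor.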

How the data were processed

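RNA was extracted from whole tumors and sequenced as 100-base single-end reads. Per the submitters' processing notes and the study's methods, the authors quantified reads against GRCm38/mm10 with kallisto 0.46.0 after bcl2fastq 2.20.0.422, summarised them with tximport and deposited estimated counts per gene, of which 23.8% were not whole. The annotation release was not given in the sources used here. Of 55341 gene names 55315 were found in GENCODE M21 (GRCm38), which gave coordinates and lengths. Estimated counts of the 18 tumors quantified in the cisplatin table were rounded, filtered with filterByExpr and scaled by TMM. All 4 groups entered 1 fit of edgeR 4.0.16 (quasi-likelihood F-test, R 4.3.3). DESeq2 1.42.0 and limma 3.58.1 were alternatives, as were other scaling, filters, dispersion, the replicate number as a block, and leaving out tumors. P-values were adjusted by the Benjamini-Hochberg method. Each edgeR SE is the absolute log2 fold change divided by the square root of its F statistic, and not a separate estimate. The scripts were tested on simulated data. Each tumor came from a different mouse, so p-values cover the spread between mice. Levels are counts scaled by TMM and library size (CPM), and list levels are mean log2 CPM with a prior count of 2.

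Members and the 29 gene lists (346 genes) were chosen with earlier results of these data known. Named genes were 59 list genes, up to 6 DEGs per direction with the largest change without replicate 1, groups that did not overlap and 50 or more counts on average, and 4 per direction with the smallest p over all 9 tumors, leaving out receptor segments and unnamed models. The DEGs of the difference between ICB effects would also have been named, but edgeR called none. The 5-FU tumors were not used. The design text gives 5 cisplatin tumors, whereas the sample labels and the study's methods give 4, all analysed here. Some named genes are not reported here and are left out of the alternative values.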

Additional observations from a re-analysis of the deposited data

Results flagged for a closer look

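In each group of 4 or 5 tumors, the highest and lowest tumor was compared with its nearest neighbor by Dixon's ratio for 29 lists, 75 named genes and 2 library shares. Chance flags about 1 group in 20, and 10 of the 212 tests were past the critical value.

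Of these, 8 belonged to cisplatin+ICB replicate 1. Its ribosomal share was 14.5%, against 4.36% in the nearest tumor of the group, and its mitochondrial share was 1.03%, against 3.23%. The fibroblast and matrix list lay at a mean of 6.3 log2 CPM, against 7.75 in the nearest tumor, and Col1a1 at 5.8 log2 CPM, against 9.98. Foxp3 lay at -1.02 log2 CPM, against 2.7, and Mki67 at 5.66, against 8.45. Pcna lay high, at 9.44 log2 CPM against 7.72, and so did Mcpt2, at 5.08 against 2.54.

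Among cisplatin tumors, replicate 4 was high in the mesothelial and tumor cell list, at 2.21 mean log2 CPM against 1.56 in the nearest tumor, and replicate 1 in its mitochondrial share, at 2.76% against 1.79%.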

How the results depend on the processing

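For cisplatin+ICB versus cisplatin with all 9 tumors, where edgeR called 0 genes, DESeq2 called 783 and voom with quality weights 6674, and leaving out 1 tumor gave 0 to 2114 (2114 without cisplatin+ICB replicate 1, 536 without replicate 3, 0 otherwise). Without replicate 1 the count of 2114 became 3444 with DESeq2 and 6043 with voom, of which 2075 and 2107 were among the 2114. With 1 more tumor left out it ranged from 372 (without cisplatin replicate 2) to 4017 (without cisplatin replicate 1), with 590 and 1083 without cisplatin replicates 3 and 4, and 651, 3223, 733 and 659 without cisplatin+ICB replicates 2, 3, 4 and 5. With no filter it was 1473. Of the named genes 42 were called without replicate 1, 27 to 47 with 1 more tumor left out, 21 with the replicate block, 47 with DESeq2 and 59 with voom. For the difference between ICB effects, DESeq2 called 1 gene and voom 3 with all tumors, and DESeq2 called 2 without replicate 1, where edgeR called 0.

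Deviations of same-numbered tumors from their group means correlated at r from -0.657 to 0.359. Cisplatin replicate 3 alone matched its own number best. The group means included cisplatin+ICB replicate 1, so these values cannot decide whether the numbers pair the tumors. With the replicate number as a block, 219 genes were called without replicate 1, all among the 2114, and 0 with all tumors.

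Over all genes tested, the median log2 change with all tumors was 0.06 with TMM, 0.14 with DESeq2 size factors and -0.06 with library totals. The edgeR fit with all tumors called 0 named genes. Of 1266 alternative values set beside it, 1072 kept their direction and side of the threshold. A further 156 passed the threshold only in the alternative, and 38, in 8 genes, changed sign. Mki67 became 0.0131 with DESeq2, 0.0975 with voom, 0.0189 with DESeq2 size factors, 0.00832 with no filter, 0.0605 with at least 10 counts in every tumor and 0.0148 with the 2 groups alone. Msln became 0.0543, 0.0744, 0.0893 and 0.0761 with DESeq2, its size factors, the stricter filter and the 2 groups alone. Pcna became -0.604 with voom (adjusted p = 0.00295, past the threshold), -0.199 with library totals, -0.00534 with no filter and -0.083 with the replicate block. Col1a1 became 0.014 with voom, Ccr2 -0.0193 and Cdkn1a -0.0176 with library totals, and Krt5 -0.471 with the replicate block. With 1 tumor left out, values ranged from -0.319 to 0.282 for Mki67, -0.617 to 0.164 for Msln, -0.514 to 0.242 for Pcna, -0.575 to 0.662 for Krt5, -0.102 to 0.514 for Ccr2, -0.462 to 0.0802 for Col1a1, -0.0276 to 0.354 for Ifit1 and -0.00017 to 0.208 for Cdkn1a. Leaving out a tumor beside replicate 1 for the gene lists was chosen after seeing the data. The cause of these changes was not tested. Genes under 3 counts in a tumor limit what depth can show for Krt5 and Glycam1.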
